A study of Homo sapiens with 26 samples.

Results

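The comparison covered U2OS cells, an established human osteosarcoma line, after 28, 32 and 36 h in acidic medium (pH 6.3) against the same hours in neutral medium (pH 7.4). It was chosen by sample, not by any measured value, and took 6 of the 26 libraries of a course that ran for 52 h with a harvest every 4 h: 3 at pH 6.3 and 3 at pH 7.4. Cells of both groups carried a luciferase reporter of the clock gene ARNTL (Arntl::dLUC), and both media were DMEM with 5% serum, PIPES and HEPES at 25 mM each in place of bicarbonate, and 0.1 µM dexamethasone, a synthetic glucocorticoid that sets cultured cells to a common clock phase. Dishes were seeded with 375000 cells and sealed without added carbon dioxide. Polyadenylated RNA gave 1 library for each medium and hour, so an hour had no second library of the same medium. The p-values therefore measure the spread of the difference over 3 hours, which mixes noise with true change between 28 and 36 h.

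Acidic medium lowers the pH around and, in part, inside cells, and cells read such stress through several pathways. MondoA, a transcription factor that senses glucose phosphates, drives TXNIP and ARRDC4. ATF4, the effector of the integrated stress response, drives genes for amino acid supply, and the unfolded protein response drives chaperones of the endoplasmic reticulum. The circadian clock is a feedback loop in which ARNTL and CLOCK drive the PER, CRY and NR1D genes, whose products repress ARNTL and CLOCK activity or ARNTL transcription, so clock transcripts rise and fall with a period of about a day.

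Values are FPKM (fragments per kilobase of transcript, per 1e6 mapped fragments) as deposited, and lists of 3 values below are in the order 28, 32 and 36 h. The spacing of low FPKM values gave an estimated depth of 26.7 to 35.2 M fragments (M for 1e6) for the 6 libraries, in which 3470 to 3819 genes were listed at 0. Correlations between these libraries across genes ran from 0.892 to 0.994. The neutral 28 h library stood apart: the deviation of its genes from their mean over all 26 libraries correlated with the GC content of the transcript at r = 0.625 across genes, which describes 1 library. Trends of similar size were seen in 3 libraries outside the comparison, with −0.62 at pH 7.4 48 h, −0.53 at pH 7.4 44 h and 0.55 at pH 6.3 20 h. The difference between media correlated with GC content at −0.49 at 28 h, −0.03 at 32 h and 0.01 at 36 h. Counts of all genes and of gene list members that rose or fell were therefore also made without the 28 h pair, and part of them are given below. Marker counts, 2-fold counts, shares of genes without overlap and list counts between windows were made with all hours only. Of 15 osteoblast and mesenchymal markers 11 reached 1 FPKM in at least 1 of the 6 libraries, while TWIST1, IBSP, SP7 and BGLAP did not. Their summed level was 2108 to 2835 FPKM at pH 7.4 and 1814 to 2111 FPKM at pH 6.3. Of 10 tested 2 rose and 5 fell by the rule given below, by which 18.9% of all genes rose and 28.5% fell. Of 12 epithelial, 10 leukocyte and 8 endothelial markers 7, 3 and 2 reached 1 FPKM. CDH1, PTPRC and VWF were below 1 FPKM in all 6. Other members of these classes were not, with highest values of 6.79 FPKM for EPCAM, 4.76 FPKM for CLDN4, 2.77 FPKM for OCLN, 4.67 FPKM for CD68 and 2.66 FPKM for PECAM1. The summed level of the epithelial markers, mostly KRT8 and KRT18, was 208 to 323 FPKM at pH 7.4 and 157 to 162 FPKM at pH 6.3. Those of the leukocyte markers, mostly LCP1, were 23.1 to 28.3 and 8.60 to 11.4 FPKM, and those of the endothelial markers 2.70 to 4.76 and 1.03 to 1.65 FPKM. Their part in the results below was not tested.

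**Figure D1:**
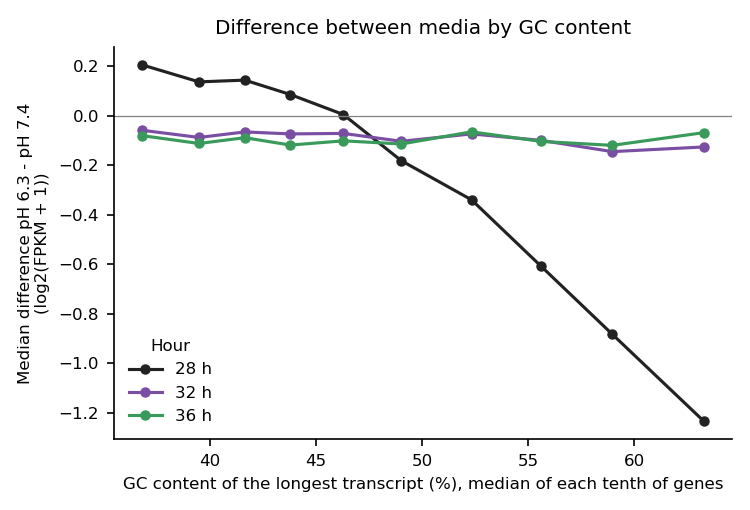
Median difference between media (pH 6.3 minus pH 7.4, log2(FPKM + 1)) on the vertical axis for genes sorted by the GC content of their longest transcript (%, horizontal axis) into 10 equal groups, with 1 line per hour. At 28 h the medians run from 0.20 in the group of lowest GC content to −1.23 in that of the highest, while the lines of 32 h and 36 h stay close to level.

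Acid changed the levels of a large part of the transcripts at these hours. Differences were tested on log2(FPKM + 1), paired by hour, for 11838 genes whose mean over the 26 libraries reached 1 FPKM, and a gene is said to have risen or fallen where limma's moderated test gave an adjusted p below 0.05. By this rule 2237 genes were higher and 3372 lower at pH 6.3, which is 18.9% and 28.5% of the genes tested and 47.4% together. Of these, 632 rose and 1318 fell at least 2-fold on this scale, where the added 1 shrinks the differences of weakly expressed genes. The 3 libraries of one medium lay entirely above those of the other in 65.8% of the genes, 26% higher and 39.9% lower in acid. The median difference of all genes was −0.15, with −0.22 at 28 h, −0.09 at 32 h and −0.10 at 36 h. Across genes, the differences at 32 and 36 h correlated at 0.93, and those at 28 h correlated with them at 0.74 and 0.71. Without the 28 h pair the counts were 3465 higher and 4561 lower, without the 32 h pair 732 and 1079, and without the 36 h pair 1186 and 1954. Lower calls outnumbered higher ones in each of these, but with median-of-ratios scaling the counts were 2781 and 2755 and with quantile normalization 2586 and 2438. Those scalings moved the median of all genes to −0.02 and 0.0024, so the share of calls that were higher went from 39.9% to 50.2% and 51.5%. Counts of list members below are to be read against 18.9% higher and 28.5% lower of all genes. Those without the 28 h pair are to be read against the 3465 and 4561 of 11838 genes called without it. A lower level in such bulk samples cannot tell fewer cells of a kind from less RNA per cell.

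TXNIP, which restrains thioredoxin and glucose uptake, showed the largest increase. It lay at 1.71, 4.53 and 4.46 FPKM at pH 7.4 and 166, 201 and 228 FPKM at pH 6.3, so the lowest acid library was far above the highest neutral one, and its log2 difference was 5.51 (SE 0.17, adjusted p = 0.00211). TSC22D3, the glucocorticoid-induced leucine zipper that damps inflammatory transcription, lay at 9.71, 8.56 and 10.6 FPKM at pH 7.4 and 316, 235 and 223 FPKM at pH 6.3 and rose by 4.59 (SE 0.14, adjusted p = 0.00211). These genes had the highest acid means among the 12 largest increases. PDK4, a kinase that turns off pyruvate dehydrogenase, went from 0.824, 1.09 and 1.72 to 22.3, 21.8 and 15.5 FPKM. DUSP1, a phosphatase that switches off MAP kinases, was steady within each medium, from 24.6, 18.2 and 20.1 to 139, 146 and 135 FPKM. The acute phase genes SAA2 and SAA1 rose by 4.04 and 3.14, and the neutrophil chemokine gene CXCL8 by 2.89. In acid all 3 climbed from 28 to 36 h, SAA1 through 126, 177 and 246 FPKM, SAA2 through 18.97, 24.4 and 32.3 FPKM and CXCL8 through 15.5, 24.3 and 28.6 FPKM. SAA1 and SAA2 are near-identical neighbours on chromosome 11, so the split of fragments between them is uncertain. By the same rule SORBS2, an adaptor of actin structures, rose by 3.16, the secreted protease inhibitor gene SLPI by 2.77, BEX5 by 2.71 and the gasdermin gene GSDMB by 2.69. The protein-coding locus CTD-2510F5.6 (chr17:59197566-59215226) was listed at essentially 0 in all neutral libraries and at 7.56, 6.27 and 3.27 FPKM in acid.

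The largest decrease was that of KRT75, a keratin gene, from 31.6 ± 14.2 to 0.753 ± 0.0185 FPKM (SD, n = 3). Its libraries read 47.9, 24.8 and 22.02 FPKM at pH 7.4 and 0.762, 0.765 and 0.732 FPKM at pH 6.3, a difference of −4.13 (SE 0.25, adjusted p = 0.00211), and near-identical keratin genes can share its fragments. RAB11FIP4, which binds the recycling GTPase RAB11, fell from 145, 91.5 and 79.7 to 5.05, 8.21 and 6.24 FPKM. TGFBI, a secreted adhesion protein induced by TGF-beta, was high and even in neutral medium, and fell from 148, 144 and 129 to 17.2, 15.3 and 14.4 FPKM. ATP13A2, which encodes a lysosomal polyamine exporter, fell by 3.38 on the log2 scale and the coagulation factor gene F13A1 by 3.48. The retinol receptor gene STRA6 fell by 3.01, the complement receptor gene C3AR1 by 3.02 and the serine protease gene FAM111B by 2.90. LCTL, the glutamate receptor auxiliary gene CNIH3, the potassium chloride cotransporter gene SLC12A7 and the locus CTC-429P9.4 (chr19:16577642-16660115) completed the 12 largest decreases, with −3.39, −3.02, −2.86 and −2.96. The 24 genes were picked from these same libraries for their large called changes, which favours groups that lie apart. None of the 24 had overlapping groups, and neither had 65.8% of all genes tested. Each of the 24 was called in all 3 fits that left out 1 hour. CTC-429P9.4 did not pass when all genes were tested with no filter on low values (adjusted p = 0.0592). In KRT75, RAB11FIP4, ATP13A2 and SLC12A7 the neutral 28 h library, the one with the GC trend, was the highest of the neutral libraries, as it also was in LCTL, TGFBI, STRA6 and CTC-429P9.4. In GRCh38 coordinates TXNIP (ENSG00000265972) lies at chr1:145992435-145996600, TSC22D3 (ENSG00000157514) at chrX:107713221-107777342, KRT75 (ENSG00000170454) at chr12:52424070-52434525 and TGFBI (ENSG00000120708) at chr5:136028895-136063818.

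**Figure D2:**
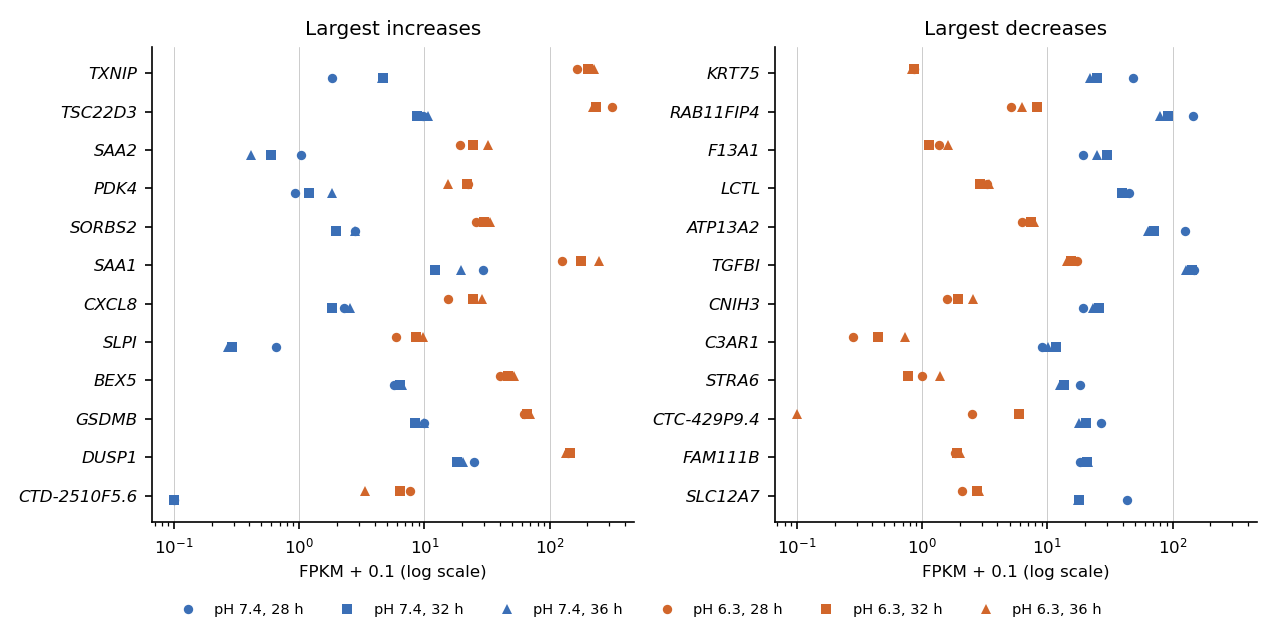
FPKM + 0.1 on a log axis in each of the 6 libraries for the 12 largest increases (left) and the 12 largest decreases (right) among called genes, with 1 row per gene, colour for the medium and symbol for the hour. In every row the 3 acid points lie to 1 side of the 3 neutral points, as they do in 65.8% of all genes tested.

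Genes on a list of targets of the glucocorticoid receptor, which dexamethasone activates in both media, were mostly higher in acid. Activity of the receptor was not measured. Of 14 tested members of that list 9 rose, 1 fell and 4 did not pass, with a median of 1.26 against −0.15 for all genes, and without the 28 h pair 11 rose and 2 fell. The transcription factor gene CEBPD rose by 2.08, the EGFR feedback inhibitor gene ERRFI1 by 2.01 and KLF9 by 1.34, beside TSC22D3, DUSP1, PDK4 and TXNIP, the last of which is also on the MondoA and FOXO lists below. SGK1, a kinase gene that glucocorticoids induce in many tissues, went the other way. It lay at 30.4, 36.7 and 40.3 FPKM at pH 7.4 and 19.6, 16.6 and 13.004 FPKM at pH 6.3, without overlap, and fell by 1.09 (SE 0.20, adjusted p = 0.0133). SGK1 did not pass without the 32 h pair (adjusted p = 0.0673). FKBP5, a co-chaperone gene and standard marker of receptor activity, had a difference of −0.28 (adjusted p = 0.109, and 0.0209 without the 28 h pair).

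In the MondoA list 3 of 6 genes rose, all of the arrestin family. These were TXNIP, ARRDC4 and ARRDC3, while a further arrestin gene, ARRDC2, MLXIP (MondoA itself) and its partner gene MLX did not pass with all 3 hours, and without the 28 h pair all 6 rose. ARRDC4, an adaptor that like TXNIP lowers glucose uptake, read 0.663, 0.769 and 0.936 FPKM at pH 7.4 and 7.45, 7.68 and 8.38 FPKM at pH 6.3 and rose by 2.30 (SE 0.13, adjusted p = 0.00211). The promoter of TXNIP is shown because it holds the paired E-box that MondoA and its relative ChREBP bind. The window holds the 250 bases before the RefSeq start (chr1:145996580-145996829, minus strand, GRCh38.p14), and the capitals mark the match, which is CACGNG, 5 bases of any kind and CACGNG again.

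TXNIP: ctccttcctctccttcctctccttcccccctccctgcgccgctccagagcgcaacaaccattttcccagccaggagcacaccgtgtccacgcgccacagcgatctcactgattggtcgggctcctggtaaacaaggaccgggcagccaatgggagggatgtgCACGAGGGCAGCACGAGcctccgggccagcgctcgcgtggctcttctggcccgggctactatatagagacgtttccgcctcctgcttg

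The match starts 88 bases before the start. Searched on both strands in windows of 300 bases (250 before and 50 after the start), this motif was in 1 of the 6 tested MondoA list promoters, that of TXNIP, and in 0.0733% of 27305 RefSeq promoters. A match is a run of letters, and no binding was measured.

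In genes of pyruvate and glucose use the shares that rose and fell were near the 18.9% and 28.5% of all genes. PDK4 rose while PDK2 and PDK3, kinases of the same enzyme, fell by 1.19 and 0.78. PDK3 did not pass without the 32 h pair (adjusted p = 0.0859), nor did PDK3 without the 36 h pair (0.0777). MPC1, 1 of the 2 subunits of the mitochondrial pyruvate carrier, rose from 24.3, 25.9 and 28.4 to 70.7, 96.5 and 104 FPKM, whereas MPC2 had a difference of 0.01 (adjusted p = 0.922). Pyruvate carboxylase (PC) fell by 1.41, with neutral values of 13.2, 3.96 and 3.92 FPKM, the first from the library with the GC trend. PDK2 and PC did not pass when all genes were tested with no filter on low values (adjusted p = 0.0545 and 0.0824). In all, 4 of 17 genes of pyruvate dehydrogenase and the lactate switch rose and 5 fell. Among 20 glycolysis genes 3 rose, HK2, SLC2A3 and HK1, and 6 fell, and without the 28 h pair 6 rose and 9 fell. HK2, the inducible hexokinase, read 1.79, 1.85 and 1.49 FPKM at pH 7.4 and 7.502, 7.67 and 8.08 FPKM at pH 6.3 and rose by 1.69 (SE 0.14, adjusted p = 0.00264). The muscle-type phosphofructokinase gene PFKM fell by 1.36 (SE 0.11, adjusted p = 0.00260) and the triosephosphate isomerase gene TPI1 by 1.11 (SE 0.16, adjusted p = 0.00728). SLC2A3, a glucose transporter gene, rose by 0.58. SLC2A3 did not pass without the 32 h pair (adjusted p = 0.147), nor did SLC2A3 without the 36 h pair (0.160). Of 15 FOXO factors and targets, genes typical of low insulin signalling, 8 rose and 2 fell, with a median of 0.41. BCL6, a transcriptional repressor, led them after TXNIP, from 14.1, 19.7 and 17.9 to 108, 100.3 and 98.3 FPKM. FOXO1 and FOXO3 rose by 1.48 and 1.26. The list's members that fell were SESN3 and KLF6, by 0.48 and 0.70. SESN3 and KLF6 did not pass without the 32 h pair (adjusted p = 0.219 and 0.0805), nor did SESN3 without the 36 h pair (0.257).

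**Figure D3:**
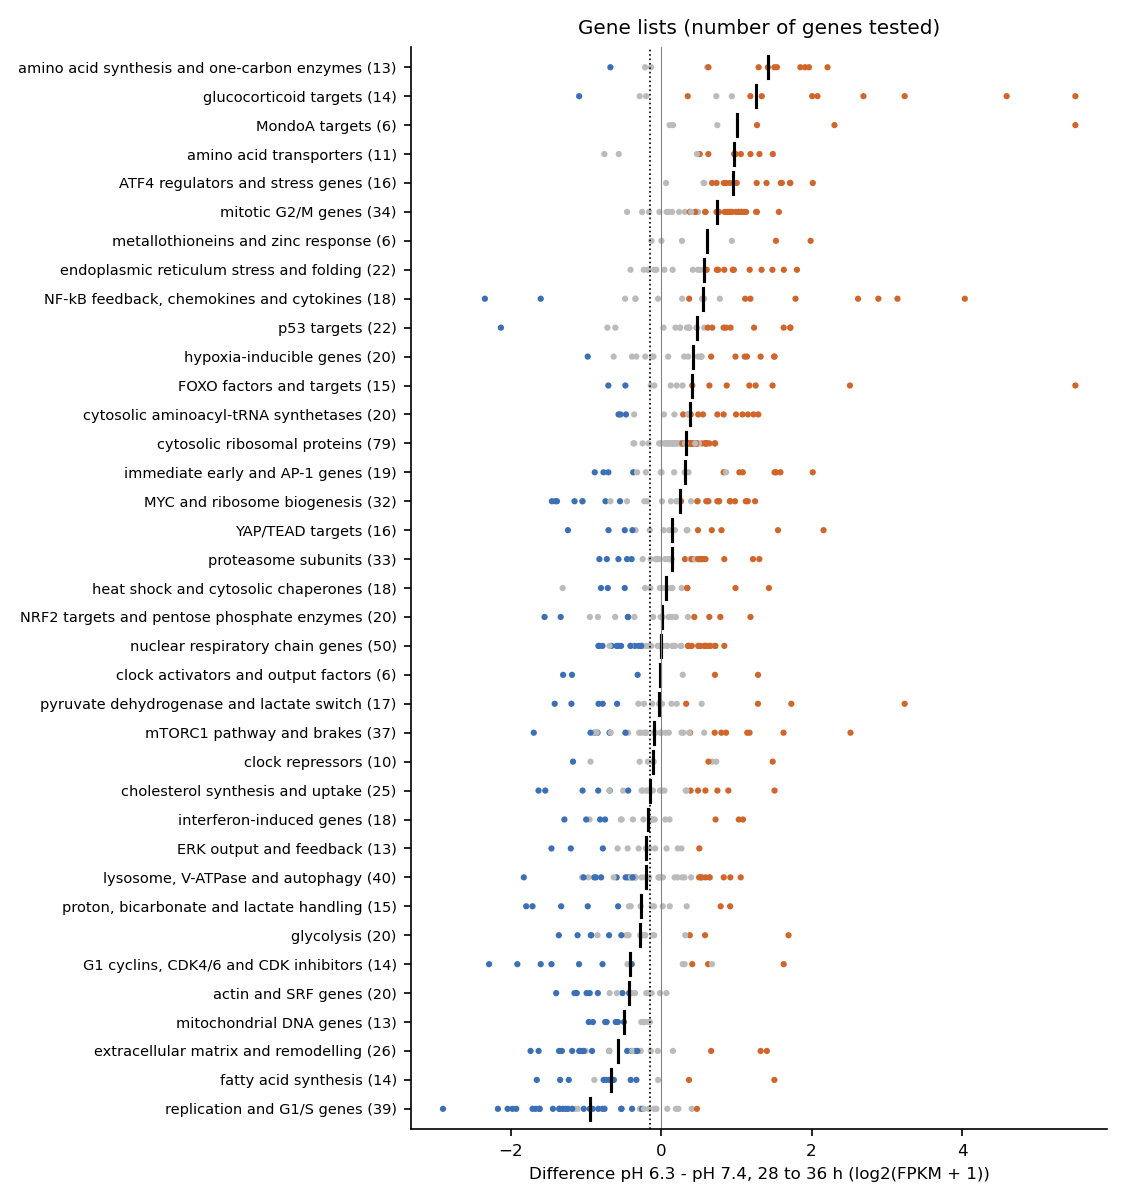
Difference between media (pH 6.3 minus pH 7.4, log2(FPKM + 1), horizontal axis) for every tested gene of 37 lists (rows, with the number of genes tested), in orange where it rose, blue where it fell and grey where it did not pass. Black bars are list medians, which run from 1.42 for amino acid synthesis to −0.95 for replication and G1/S genes, and the dotted line is the median of all genes, −0.15.

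Transcripts on the lists of ATF4 regulators and stress genes and of amino acid enzymes and transporters were mostly higher in acid. ATF4 protein and its activity were not measured. Of 16 ATF4 regulators and stress genes 13 rose and 0 fell, with a median of 0.96, and SESN2, NUPR1 and ATF5 did not pass. ATF4 itself rose by 1.40, and ATF3, a stress-induced repressor that it activates, read 4.501, 3.67 and 4.18 FPKM at pH 7.4 and 18.4, 18.01 and 22.8 FPKM at pH 6.3 and rose by 2.02 (SE 0.14, adjusted p = 0.00223). DDIT3 (CHOP), the factor tied to cell death under long stress, rose by 1.59, TRIB3 by 1.27 and the glutathione-degrading enzyme gene CHAC1 by 0.92. GDF15, a secreted stress hormone, rose by 1.72, with neutral values of 2.28, 0.468 and 0.950 FPKM against 3.64, 6.70 and 8.37 FPKM in acid. Its differences were 0.50 at 28 h, 2.39 at 32 h and 2.26 at 36 h. GDF15, TRIB3 and CHAC1 did not pass without the 32 h pair (adjusted p = 0.103, 0.0521 and 0.114), nor did GDF15 and CHAC1 without the 36 h pair (0.0679 and 0.0907).

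Enzymes that make amino acids and one-carbon units had the highest median of all 37 lists, 1.42. Of 13 tested 9 rose and 1 fell. CTH, which makes cysteine from cystathionine, read 3.24, 3.099 and 3.24 FPKM at pH 7.4 and 18.9, 16.9 and 19.7 FPKM at pH 6.3. Asparagine synthetase (ASNS) went from 46.5, 36.8 and 35.8 to 152, 162 and 157 FPKM, without overlap. The log2 differences were 2.21 (SE 0.12, adjusted p = 0.00211) for CTH and 1.97 (SE 0.12, adjusted p = 0.00211) for ASNS. ALDH18A1, the first enzyme of proline synthesis, rose by 1.92, the mitochondrial folate enzymes ALDH1L2, MTHFD2 and MTHFD1L by 1.85, 1.51 and 1.42, and the serine synthesis gene PSAT1 by 1.30. PSPH, the last enzyme of the same serine pathway, fell instead, by 0.67. PSPH did not pass without the 32 h pair (adjusted p = 0.104), nor did PSPH without the 36 h pair (0.0864). Amino acid transporters followed, with 8 of 11 higher and 0 lower, and 9 and 1 without the 28 h pair. SLC3A2, the shared heavy chain of several of them, read 142, 117 and 112 FPKM at pH 7.4 and 387, 332 and 322 FPKM at pH 6.3 and rose by 1.49 (SE 0.07, adjusted p = 0.00211). The glutamine carrier gene SLC1A5 rose by 1.31 and the cystine carrier gene SLC7A11 by 1.19. SLC7A5, the leucine carrier that pairs with SLC3A2, had a difference of −0.56 (adjusted p = 0.271). SLC7A11 did not pass without the 32 h pair (adjusted p = 0.0515).

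Cytosolic aminoacyl-tRNA synthetases, which load amino acids onto tRNA, split in direction. Of 20 genes 11 rose and 3 fell, with a median of 0.38. The enzymes for methionine (MARS) and tyrosine (YARS) went from 137, 138 and 124 to 321, 311 and 349 FPKM and from 86.96, 80.2 and 77.8 to 195, 195 and 187 FPKM. Those for aspartate (DARS) and histidine (HARS) and a phenylalanine subunit (FARSB) fell by 0.57, 0.54 and 0.47. DARS, HARS and FARSB did not pass without the 32 h pair (adjusted p = 0.0722, 0.160 and 0.188), nor did DARS, HARS and FARSB without the 36 h pair (0.0563, 0.0611 and 0.166). With median-of-ratios scaling 13 rose and 1 fell. The ATF4 composite motif TGATGNAAT, searched on both strands, was in 0 of 15 promoters of the ATF4 regulators, in 1 of 8 of the amino acid enzymes (MTHFD1L), in 0 of 10 of the transporters and in 0 of 2 of the synthetases that were matched, against 1.02% of all promoters.

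Chaperones and sensors of the endoplasmic reticulum rose in part. Of 22 genes 11 rose, none fell (0) and the other 11 missed the threshold, with a median of 0.57. Without the 28 h pair 13 rose and 2 fell, and with quantile normalization 12 rose and 2 fell. HERPUD1, a part of the degradation machinery of that compartment, read 161, 144 and 142 FPKM at pH 7.4 and 487, 524 and 561 FPKM at pH 6.3 and rose by 1.81 (SE 0.10, adjusted p = 0.00211). EIF2AK3 (PERK), the stress sensor kinase that acts upstream of ATF4, went from 23.1, 26.2 and 26.6 to 76.1, 82.3 and 82.7 FPKM. The main chaperone gene of the compartment, HSPA5 (BiP), rose by 1.48, HSP90B1 by 0.97 and the transcription factor genes ATF6 and XBP1 by 0.74 and 0.61. ATF6 and XBP1 did not pass without the 32 h pair (adjusted p = 0.0751 and 0.0629). Calreticulin (CALR), calnexin (CANX) and the disulfide isomerase genes PDIA3, PDIA4 and PDIA6 did not pass, with differences from −0.23 to 0.15. The 3 promoters below belong to genes of this list that rose and hold the endoplasmic reticulum stress element, which is CCAAT, 9 bases of any kind and CCACG, in capitals on either strand. They are HSPA5 (chr9:125241344-125241593, minus strand), HSP90B1 (chr12:103930160-103930409, plus strand) and XBP1 (chr22:28800570-28800819, minus strand), each with the 250 bases before the RefSeq start in GRCh38.p14.

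HSPA5: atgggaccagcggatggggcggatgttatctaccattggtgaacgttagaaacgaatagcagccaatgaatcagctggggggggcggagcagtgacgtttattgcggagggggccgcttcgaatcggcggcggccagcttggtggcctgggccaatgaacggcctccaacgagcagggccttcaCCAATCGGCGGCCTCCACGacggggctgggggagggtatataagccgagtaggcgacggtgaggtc

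HSP90B1: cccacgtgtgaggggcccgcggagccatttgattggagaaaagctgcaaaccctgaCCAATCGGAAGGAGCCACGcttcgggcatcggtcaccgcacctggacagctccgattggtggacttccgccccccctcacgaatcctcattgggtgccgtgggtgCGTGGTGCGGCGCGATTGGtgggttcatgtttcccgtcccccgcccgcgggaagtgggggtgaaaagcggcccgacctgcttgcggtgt

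XBP1: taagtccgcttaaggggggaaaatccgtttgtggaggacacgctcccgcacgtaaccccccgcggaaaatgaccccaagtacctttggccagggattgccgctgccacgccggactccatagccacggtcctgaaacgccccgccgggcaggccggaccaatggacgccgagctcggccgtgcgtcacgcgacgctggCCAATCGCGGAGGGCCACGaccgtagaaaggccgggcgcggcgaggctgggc

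HSP90B1 holds 2 matches, the second on the opposite strand. The element was in 6 of 21 promoters of the list and in 0.0806% of all promoters. CALR, CANX and CRELD2 also hold it, and none of these 3 passed the test, with differences of −0.23, −0.17 and −0.41. The element was thus present in members that rose and in members that did not pass. Heat shock factors and cytosolic chaperones were mixed, with 4 of 18 higher and 3 lower, shares near or below those of all genes (18.9% and 28.5%). The counts were 7 and 7 without the 28 h pair and 2 and 4 with quantile normalization, which turned the sign of the list's median from 0.06 to −0.07. DNAJB4 rose by 1.43 and TCP1, a subunit of the chaperonin CCT, by 0.99. CCT2, another subunit of the same ring, fell by 0.71, HSPE1 by 0.48 and the HSP70 partner gene DNAJB1 by 0.80. CCT2 and HSPE1 did not pass without the 32 h pair (adjusted p = 0.0539 and 0.154), nor did HSPE1 without the 36 h pair (0.142).

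Many genes of DNA replication fell and many genes of mitosis rose in the same libraries. Of 39 replication and G1/S genes 26 fell and 1 rose, with a median of −0.95 and 31 lower and 3 higher without the 28 h pair. MCM3, a subunit of the replicative helicase, read 113, 106 and 109 FPKM at pH 7.4 and 30.1, 33.4 and 35.04 FPKM at pH 6.3, without overlap. It fell by 1.71 (SE 0.10, adjusted p = 0.00211). The other helicase genes MCM2, MCM4 and MCM5 fell by 1.62, 1.67 and 1.93, while MCM7 had a difference of −0.28 (adjusted p = 0.0780) and PCNA fell by 0.25. RFC4, a clamp loader subunit, was the only member that rose, by 0.48. PCNA and RFC4 did not pass without the 32 h pair (adjusted p = 0.281 and 0.113), nor did PCNA and RFC4 without the 36 h pair (0.302 and 0.0676). Of 34 mitotic G2/M genes 23 rose and 0 fell (24 and 2 without the 28 h pair), with a median of 0.74. The mitotic kinase gene AURKA read 71.9, 74.5 and 71.2 FPKM at pH 7.4 and 222, 218 and 209.8 FPKM at pH 6.3 and rose by 1.57 (SE 0.07, adjusted p = 0.00211). PTTG1 (securin) went from 169.6, 187 and 185 to 425, 455 and 433 FPKM. Cyclins A2 and B1 rose by 1.26 and 0.84. CDK1 and the proliferation marker gene MKI67 did not pass, with 0.07 and −0.25. The E2F letters TTTNNCGC, searched on both strands, were in 18 of the 33 matched promoters of the replication list and in 6.90% of all promoters.

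Upstream of replication, E2F1, the factor that opens S phase, fell from 23.5, 12.1 and 12.9 to 2.34, 2.57 and 2.22 FPKM. CDK4 fell from 296, 194 and 196 to 55.2, 59.8 and 61.6 FPKM, also without overlap. Of 14 G1 cyclins, kinases and inhibitors 7 fell and 3 rose, where 28.5% of all genes fell and 18.9% rose. With median-of-ratios scaling 6 fell and 6 rose, while 7 fell and 6 rose without the 28 h pair. Cyclins D1 (CCND1) and E2 (CCNE2) fell by 1.46 and 1.60 while cyclin D2 (CCND2) rose by 0.62. CCND2 did not pass without the 32 h pair (adjusted p = 0.137), nor did CCND2 without the 36 h pair (0.0574). CDKN1A (p21), the p53-induced inhibitor of these kinases, read 63.9, 42.8 and 43.4 FPKM at pH 7.4 and 139.6, 162 and 163 FPKM at pH 6.3 and rose by 1.63 (SE 0.18, adjusted p = 0.00422). Of 22 p53 targets 10 rose, 1 fell and 11 did not pass, with a median of 0.47. CCNG1 went from 99.2, 121 and 123 to 391, 384 and 357 FPKM, RRM2B rose by 1.24 and FAS by 0.92. FAS did not pass without the 32 h pair (adjusted p = 0.0568). TP53I3, an oxidoreductase gene of the same list, fell by 2.13 (SE 0.20, adjusted p = 0.00323), and MDM2 and BAX did not pass (0.25 and −0.61).

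Many ribosomal protein genes rose by small amounts. Of 79 cytosolic ones 37 rose, 0 fell and 42 did not pass, with differences from −0.37 to 0.72 and a median of 0.33, and the counts were 75 and 1 without the 28 h pair. Their median difference was 0.14 at 28 h and 0.43 at both 32 and 36 h. RPL34 went from 850.2, 1071 and 1018 to 1615, 1631 and 1568 FPKM and RPS13 from 1089, 1222 and 1134 to 1893, 1898 and 1853 FPKM. With quantile normalization 29 rose and 0 fell, and near-identical pseudogenes make single values of this family uncertain. Genes that build ribosomes were split, with 13 of 32 higher and 7 lower. The nucleolar genes NOLC1 and GNL3 rose by 1.25 and 1.13. NOP56, a core protein of the enzyme that methylates ribosomal RNA, fell from 218, 236 and 230.4 to 85.6, 85.1 and 85.2 FPKM, while its partner NOP58 rose by 0.62. NOP58 did not pass without the 32 h pair (adjusted p = 0.0514). POLR1A, the largest subunit of RNA polymerase I, fell by 1.45 and POLR1B, the next in size, rose by 0.77. The MYC antagonist gene MXD1 rose by 1.15, and MYC did not pass, with 15.9, 8.49 and 8.55 FPKM at pH 7.4 and 14.3, 14.5 and 13.8 FPKM at pH 6.3.

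In the mTORC1 list, 8 of 37 genes rose and 7 fell, shares near or below those of all genes (18.9% and 28.5%). Without the 28 h pair 12 rose and 12 fell, where 3465 of all 11838 genes rose and 4561 fell. NPRL2, a subunit of the GATOR1 brake on mTORC1, read 20.3, 17.3 and 18.9 FPKM at pH 7.4 and 90.2, 118 and 133 FPKM at pH 6.3 and rose by 2.52 (SE 0.16, adjusted p = 0.00211). Its partner genes NPRL3 and DEPDC5 had differences of −0.90 and −0.86 that did not pass (adjusted p = 0.0656 and 0.0767). SEC13, shared by the GATOR2 complex and vesicle coats, rose by 1.63 and MTOR itself by 1.18. FLCN, the folliculin gene that acts on the RAG GTPases, fell by 1.69 (SE 0.17, adjusted p = 0.00333) and the GTPase genes RRAGC and RRAGA by 0.89 and 0.68. EIF4EBP2, which mTORC1 switches off to allow translation, fell by 0.94. DDIT4, a stress-induced inhibitor of mTORC1, rose by 0.86. RRAGC, RRAGA, EIF4EBP2 and DDIT4 did not pass without the 32 h pair (adjusted p = 0.0600, 0.0698, 0.0866 and 0.119), nor did EIF4EBP2 and DDIT4 without the 36 h pair (0.0618 and 0.0854). SESN2, a leucine sensor, had a difference of 0.57 (adjusted p = 0.0680, and 0.00158 without the 28 h pair).

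Transcripts of mitochondrial DNA were lower in acid. Their share of all FPKM was 19.1% ± 2.15 in neutral and 14.1% ± 0.226 in acidic medium (SD, n = 3), with the acid library below the neutral one at 3 of 3 hours. The exact paired permutation test gave p = 0.25, the smallest that 3 pairs allow, two-sided. Of the 13 genes 7 fell and 0 rose, and all 13 fell without the 28 h pair. MT-CYB, a core subunit of complex III, fell from 4601, 5045 and 4684 to 2402, 2494 and 2451 FPKM, and MT-CO3 fell by 0.91 (SE 0.09, adjusted p = 0.00329). MT-CO3 did not pass when all genes were tested with no filter on low values (adjusted p = 0.0798). With quantile normalization the median of these genes was −0.14, 5 fell and 1 rose, and MT-CO1, MT-ATP6 and MT-ATP8, which fell in the deposited FPKM, had positive differences. Nuclear genes of the respiratory chain went both ways, with 15 of 50 higher and 11 lower, where 18.9% of all genes rose and 28.5% fell. Without the 28 h pair 20 rose and 18 fell. With correction for GC content 15 rose and 18 fell, and with median-of-ratios scaling 16 rose and 6 fell. Complex II was split. SDHA rose by 0.84, SDHB by 0.50 and SDHD by 0.53, and SDHC fell from 138, 135 and 133 to 65.2, 83.7 and 80.7 FPKM. In complex I, NDUFB10 rose by 0.72 and NDUFB8 fell by 0.83. SDHA, SDHB, SDHD and NDUFB10 did not pass without the 32 h pair (adjusted p = 0.0550, 0.0979, 0.0824 and 0.0746), nor did SDHB without the 36 h pair (0.0708).

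Genes that move protons, bicarbonate and lactate gave 2 increases and 5 decreases among 15 tested, shares near those of all genes (18.9% and 28.5%). The list's median was −0.27, and 0.09 with quantile normalization. SLC9A7, a sodium-proton exchanger of the Golgi, read 10.5, 7.13 and 9.16 FPKM at pH 7.4 and 16.1, 18.5 and 18.1 FPKM at pH 6.3 and SLC4A7, a sodium-bicarbonate cotransporter that imports base, read 12.9, 17.8 and 19.5 FPKM at pH 7.4 and 28.9, 27.9 and 31.3 FPKM at pH 6.3. Both rose, by 0.92 and 0.79. SLC9A7, SLC4A7 and CA12 did not pass without the 32 h pair (adjusted p = 0.0952, 0.0631 and 0.0610), nor did SLC9A7 without the 36 h pair (0.0525). ASIC1, a channel opened by protons, fell from 10.2, 7.86 and 8.43 to 2.197, 1.79 and 1.99 FPKM. SLC4A2, which exports bicarbonate in exchange for chloride, fell from 98.7, 28.3 and 32.4 to 12.6, 12.1 and 12.1 FPKM, and its neutral 28 h value stood far above the other neutral values. SLC4A2 did not pass when all genes were tested with no filter on low values (adjusted p = 0.0803). The carbonic anhydrase genes CA12 and CA13 fell by 0.98 and 1.33. Of 40 genes of the lysosome, the proton pump V-ATPase and autophagy 8 rose and 11 fell, shares near those of all genes (18.9% and 28.5%). The counts were 13 and 22 without the 28 h pair, and 11 and 7 with median-of-ratios scaling. Members of the autophagy machinery were among those that rose, with WIPI1 from 39.7, 42.9 and 46.1 to 85.7, 92.02 and 93.4 FPKM and MAP1LC3B higher by 0.83. Pump genes were among those that fell, with ATP6V0D1, ATP6V1C1 and ATP6V1A lower by 1.03, 0.80 and 0.44. MITF, a regulator of lysosomal genes, rose by 0.92 and TFEB, its relative, fell by 0.59. ATP6V0D1, ATP6V1A, MITF and TFEB did not pass without the 32 h pair (adjusted p = 0.0656, 0.148, 0.0821 and 0.136), nor did ATP6V1A, MITF and TFEB without the 36 h pair (0.179, 0.0567 and 0.105).

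Hypoxia-inducible genes were higher in part, with 8 of 20 up and 1 down (13 and 1 without the 28 h pair) and a median of 0.42, where 18.9% of all genes rose and 28.5% fell. NDRG1 went from 52.6, 45.2 and 39.5 to 143, 127 and 123 FPKM and INSIG2, which restrains cholesterol synthesis, from 26.9, 33.4 and 34.5 to 82.7, 93.3 and 98.4 FPKM. BNIP3, a mitophagy receptor gene, and EPAS1 (HIF2A) rose by 1.14 and 1.11. BNIP3 did not pass without the 32 h pair (adjusted p = 0.0504). VEGFA and ADM, standard targets of the hypoxia factors, did not pass, with −0.33 and −0.63. CA12, described above, was the member that fell.

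Fatty acid synthesis genes were mostly lower in acid. Of 14 fatty acid synthesis genes 10 fell and 2 rose, with a median of −0.67. SREBF1, the driver of this pathway, fell from 147, 75.6 and 71.4 to 24.6, 31.9 and 30.3 FPKM, again with the neutral 28 h library on top. SREBF1 did not pass when all genes were tested with no filter on low values (adjusted p = 0.0640). GPAM, the first step of glycerolipid synthesis, fell by 1.34, the elongase gene ELOVL6 by 1.23, ACACA by 0.76 and the desaturase gene SCD by 0.65. ELOVL5, an elongase of polyunsaturated fatty acids, rose from 111, 131 and 132 to 352, 360.0 and 354 FPKM. ACSS2, which makes acetyl-CoA from acetate, rose by 0.37. ACSS2, ACACA and SCD did not pass without the 32 h pair (adjusted p = 0.155, 0.0543 and 0.0585), nor did ACSS2 without the 36 h pair (0.146). Cholesterol synthesis genes gave 6 increases and 6 decreases among 25, shares near those of all genes, and 8 and 13 without the 28 h pair. SQLE, which epoxidises squalene, rose by 0.89 (SE 0.14, adjusted p = 0.00916). LSS, the enzyme after SQLE, fell by 1.63 (SE 0.20, adjusted p = 0.00518).

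Among 20 NRF2 targets and pentose phosphate enzymes 4 rose and 4 fell, shares near or below those of all genes (18.9% and 28.5%). Without the 28 h pair 8 rose and 8 fell. Glutathione reductase (GSR) rose by 0.79 and NFE2L2, which encodes NRF2, by 0.64. NQO1 fell from 90.6, 87.4 and 82.8 to 36.4, 37.4 and 28.5 FPKM and the haem oxygenase gene HMOX1 from 31.96, 19.7 and 17.1 to 5.96, 7.17 and 7.61 FPKM, both without overlap. GSR and NFE2L2 did not pass without the 32 h pair (adjusted p = 0.0754 and 0.0546). HMOX1 did not pass when all genes were tested with no filter on low values (adjusted p = 0.0511). Metallothionein and zinc genes gave 2 increases and 0 decreases among 6, and 4 and 0 without the 28 h pair. MT1E read 221, 187 and 169 FPKM at pH 7.4 and 717, 768 and 799 FPKM at pH 6.3 and MT1X rose by 1.53 (adjusted p = 0.0120). MT1X did not pass without the 32 h pair (adjusted p = 0.0550). These genes are close copies of each other, so fragments may be split between them.

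Chemokine and NF-kB genes included 3 of the 12 largest increases. Of 18 tested 8 rose and 2 fell, with a median of 0.56. SAA2, SAA1, CXCL8, CCL20 and BIRC3 rose, the last 2 by 2.62 and 1.79, together with the feedback inhibitor gene NFKBIA by 1.19. CCL2, the monocyte chemokine, moved against them and fell from 150.2, 166 and 191 to 34.8, 32.8 and 29.8 FPKM. LIF, a cytokine of the IL6 family, fell by 1.60, and IL6 and ICAM1 did not pass (0.78 and −0.34). LIF did not pass when all genes were tested with no filter on low values (adjusted p = 0.0544). Interferon-induced genes gave 3 increases and 4 decreases among 18, shares below those of all genes (18.9% and 28.5%). The counts were 4 and 8 without the 28 h pair and 3 and 2 with quantile normalization. The peptide transporter gene TAP1 read 10.3, 7.31 and 7.63 FPKM at pH 7.4 and 18.4, 19.2 and 18.9 FPKM at pH 6.3, and USP18 and HLA-B rose by 1.03 and 0.72. IFI44L fell by 1.29 (SE 0.14, adjusted p = 0.00378) and OAS1, IFIT2 and IFIT3 by 1.00, 0.75 and 0.81. TAP1, USP18, HLA-B, IFIT2 and IFIT3 did not pass without the 32 h pair (adjusted p = 0.0596, 0.0789, 0.124, 0.0858 and 0.0603), nor did USP18, HLA-B, OAS1, IFIT2 and IFIT3 without the 36 h pair (0.0526, 0.0935, 0.0717, 0.0695 and 0.0540).

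Immediate early genes also split. Of 19 tested 7 rose and 4 fell, where 18.9% of all genes rose and 28.5% fell. The counts were 12 and 4 without the 28 h pair and 7 and 2 with quantile normalization. FOS and FOSB rose by 1.51 and 1.53 and ZFP36, which destabilises cytokine mRNA, by 1.59 (SE 0.22, adjusted p = 0.00606). JUN read 10.998, 6.904 and 7.05 FPKM at pH 7.4 and 4.43, 4.19 and 4.504 FPKM at pH 6.3 and EGR1 14.7, 10.1 and 9.86 FPKM at pH 7.4 and 5.08, 5.897 and 6.19 FPKM at pH 6.3. JUN and EGR1 fell by 0.77 and 0.88. JUND fell by 0.37 and had the opposite sign after correction for GC content. JUN, EGR1 and JUND did not pass without the 32 h pair (adjusted p = 0.104, 0.0860 and 0.295), nor did JUN and JUND without the 36 h pair (0.0633 and 0.184). In 13 genes of ERK output 1 rose, ETV5, and 6 fell without the 28 h pair. With all hours 3 fell, CCND1, ETV4 and SPRED1, by 1.46, 1.20 and 0.77. The shares of this list that rose and fell with all hours were below those of all genes (18.9% and 28.5%). ETV5 rose by 0.51, and with quantile normalization 3 members of the list rose. ETV5 and SPRED1 did not pass without the 32 h pair (adjusted p = 0.107 and 0.115), nor did ETV5 without the 36 h pair (0.0928).

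YAP/TEAD targets gave 5 increases and 4 decreases among 16, where 18.9% of all genes rose and 28.5% fell. CYR61, a secreted matrix protein gene, read 57.8, 50.1 and 53.6 FPKM at pH 7.4 and 255, 254 and 223 FPKM at pH 6.3 and rose by 2.16 (SE 0.09, adjusted p = 0.00211). CRIM1 rose by 1.55, while CTGF, which belongs to the same CCN family, had a difference of 0.11 (adjusted p = 0.363). AXL fell by 1.24 and YAP1 itself by 0.70. YAP1 did not pass without the 32 h pair (adjusted p = 0.0818), nor did YAP1 without the 36 h pair (0.0580). Actin and SRF genes had 8 decreases and 0 increases among 20, where 28.5% of all genes fell and 18.9% rose. Their medians were −0.90, −0.14 and −0.22 at 28, 32 and 36 h, and there were 10 decreases and 2 increases without the 28 h pair. MYH9, non-muscle myosin, fell from 222, 229.5 and 223 to 100.3, 104 and 97.9 FPKM, evenly at the 3 hours. MYL9, a myosin light chain, fell by 1.40, with 129, 43.5 and 42.2 FPKM in neutral medium. MYL9 did not pass without the 32 h pair (adjusted p = 0.0675).

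Genes of the extracellular matrix were mostly lower. Of 26 tested 15 fell and 3 rose, where 28.5% of all genes fell and 18.9% rose. The list's median was −0.57, with −0.98 at 28 h and −0.36 at 36 h. Without the 28 h pair 16 fell and 5 rose. COL6A3 fell from 129.6, 118 and 101 to 39.2, 36.5 and 34.3 FPKM. COL1A1, the main collagen of bone, fell by 1.74, with 355, 118 and 109.8 FPKM in neutral medium. COL1A1 did not pass when all genes were tested with no filter on low values (adjusted p = 0.0717). Fibronectin (FN1), COL4A1 and TIMP3 fell by 1.08, 1.36 and 1.32. The members that rose were the collagen crosslinking enzyme gene LOX, from 9.01, 10.4 and 9.75 to 22.7, 25.8 and 29.3 FPKM, the protease gene MMP3, by 1.41, and P4HA1, by 0.67. Proteasome subunit genes gave 13 increases and 5 decreases among 33, and 15 and 3 with median-of-ratios scaling. PSMA5 went from 286, 344 and 307 to 708, 765 and 712 FPKM and PSMC4 rose by 1.31. PSME3, an activator subunit, fell by 0.82 and PSMC5, an ATPase of the same ring as PSMC4, by 0.72. P4HA1 and PSMC5 did not pass without the 32 h pair (adjusted p = 0.0515 and 0.0514).

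Of 10 tested clock repressors 2 rose and 1 fell, shares near or below those of all genes (18.9% and 28.5%), and of 6 activators and output factors 2 rose and 3 fell, with 3 and 3 in each list without the 28 h pair. The activator ARNTL (BMAL1) was higher in acid, with 18.8, 10.4 and 11.7 FPKM at pH 7.4 and 23.5, 22.8 and 20.6 FPKM at pH 6.3, and rose by 0.72 (SE 0.18, adjusted p = 0.0286). RORA, which activates ARNTL transcription, read 3.25, 3.95 and 5.38 FPKM at pH 7.4 and 12.1, 10.7 and 11.8 FPKM at pH 6.3 and rose by 1.29 (SE 0.17, adjusted p = 0.00583). NFIL3, a repressor of D-box genes, went from 8.63, 8.403 and 11.6 to 29.9, 27.6 and 27.4 FPKM. The activators of the same D-box genes were lower: DBP fell from 7.99, 9.51 and 6.28 to 2.77, 2.71 and 3.18 FPKM and TEF from 6.77, 11.4 and 10.2 to 4.22, 2.35 and 3.095 FPKM. BHLHE41, a repressor of E-box genes, fell by 1.17 (SE 0.12, adjusted p = 0.00349) and CRY2 rose by 0.63 (SE 0.19, adjusted p = 0.0498). CLOCK fell by 0.31 (SE 0.09, adjusted p = 0.0453). ARNTL, TEF, CRY2, CLOCK and DBP did not pass without the 32 h pair (adjusted p = 0.166, 0.0917, 0.117, 0.280 and 0.0672), nor did ARNTL, TEF, CRY2 and CLOCK without the 36 h pair (0.0979, 0.0581, 0.128 and 0.278). CLOCK did not pass with median-of-ratios scaling, upper-quartile scaling or quantile normalization either.

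Several core repressors changed sign within the 3 hours. The differences at 28 h rest on the neutral library with the GC trend, and its part in the sign changes was not tested. In that library PER1 read 20.7 FPKM, against 7.54 FPKM at pH 7.4 24 h and 6.79 FPKM at pH 7.4 32 h. NR1D1 (REV-ERBα), the repressor of ARNTL, read 20.6, 7.35 and 3.17 FPKM at pH 7.4 and 4.998, 7.67 and 10.6 FPKM at pH 6.3, so it fell steeply with time in neutral medium and climbed in acid. Its differences were −1.85 at 28 h, 0.05 at 32 h and 1.47 at 36 h. CRY1 showed the opposite course, with 2.15 at 28 h, 0.17 at 32 h and −0.28 at 36 h, from 9.35, 23.3 and 31.9 FPKM at pH 7.4 and 44.9, 26.4 and 25.97 FPKM at pH 6.3. PER1 had −0.34 at 28 h, 1.07 at 32 h and 1.48 at 36 h and PER3 0.46 at 28 h, −1.63 at 32 h and −1.65 at 36 h, and PER2, at 0.651 to 2.05 FPKM, 0.45 at 28 h, −0.58 at 32 h and −0.72 at 36 h. NR1D2, the relative of NR1D1, had 0.04 at 28 h, −0.50 at 32 h and −0.07 at 36 h, BHLHE40 −0.65 at 28 h, −0.18 at 32 h and 0.53 at 36 h and NPAS2, a stand-in for CLOCK, −0.01 at 28 h, 0.24 at 32 h and 0.63 at 36 h. None of NR1D1, CRY1 and the PER genes passed with all 3 hours (adjusted p from 0.163 for PER3 to 0.898 for NR1D1), and the libraries of these 5 overlapped between media. The E-box CACGTG, searched on both strands, was in 3 of 10 repressor promoters (PER1, BHLHE40 and BHLHE41), in 1 of 5 promoters of the activators and output factors (TEF) and in 7.44% of all promoters.

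**Figure D4:**
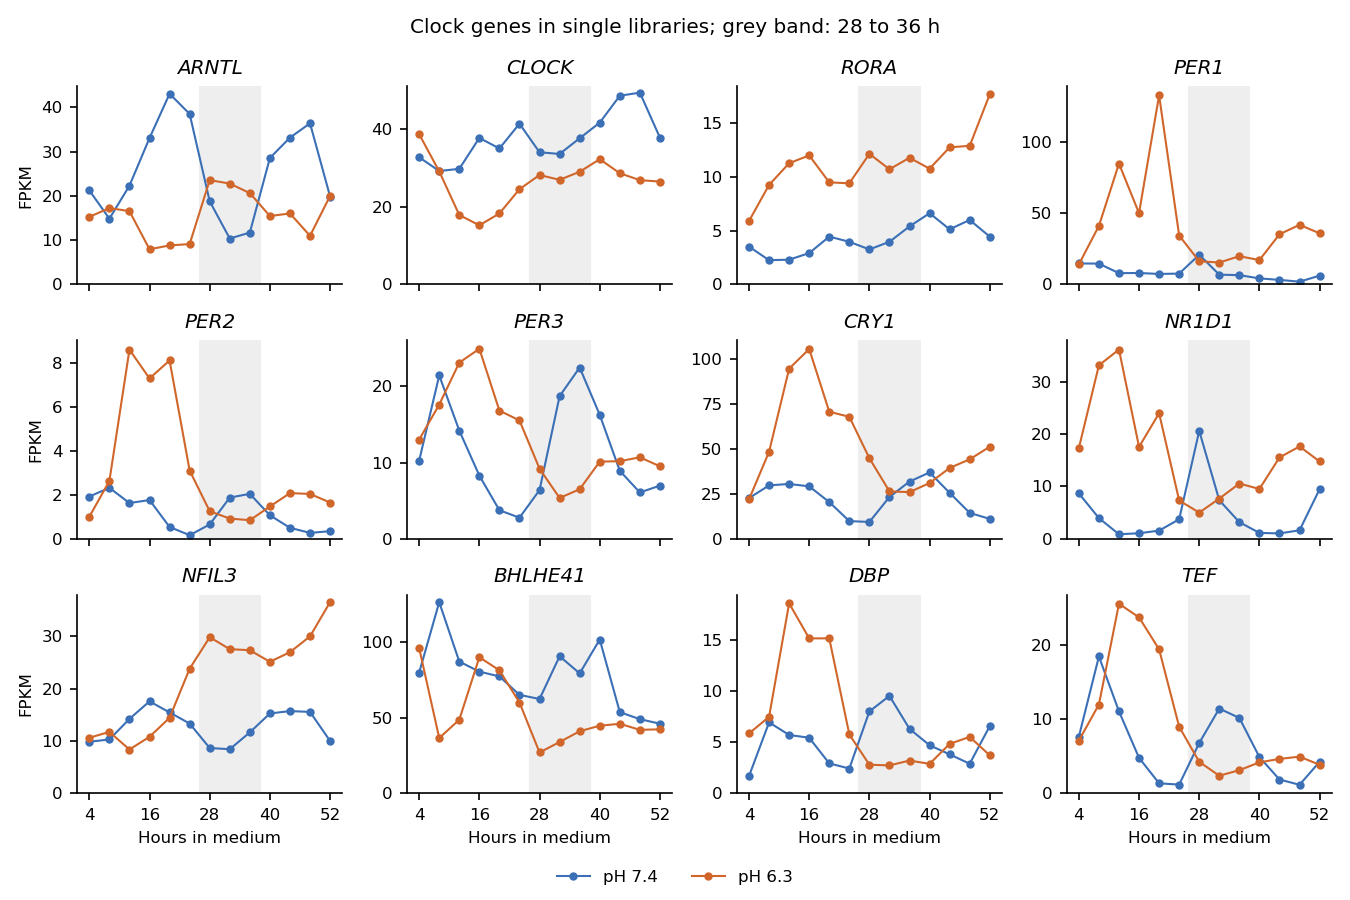
FPKM (vertical axis, from 0) of 12 clock genes against hours in medium (horizontal axis) in each of the 26 single libraries, with 1 line per medium and a grey band over 28 to 36 h. In the band ARNTL is higher in acid and TEF and DBP are lower, whereas the lines of CRY1 and NR1D1 cross.

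The acid effect at 28 to 36 h was then set against that in 3 other windows of the course, by the interaction of medium and window in 1 fit of all 26 libraries with the hour as a block. The 4 to 24 h libraries came from plates seeded and treated a day after those of 28 to 52 h, so for the earlier windows time in medium and plate set cannot be told apart. Against 4 to 12 h the effect differed in 26.5% of genes, being higher at 28 to 36 h in 1734 (14.6%) and lower in 1399 (11.8%). These counts were 1885 and 1165 without the 28 h pair and its counterparts in the other windows, and 582 and 405 without the 32 h pair and its counterparts. The balance turned to 1406 higher and 1722 lower without the 8 and 12 h pairs, with 1779 of the calls shared, and to 1457 and 1646 with upper-quartile scaling. The 8 and 12 h pairs hold the shallowest libraries, with an estimated 9.83 M fragments at pH 7.4 12 h and 11.3 M at pH 6.3 8 h. SAA2 was at 0.218, 0.852 and 0.830 FPKM at pH 7.4 and 0.321, 0.249 and 1.298 FPKM at pH 6.3 at 4, 8 and 12 h, so the media overlapped there. Its effect rose by 4.08 (SE 0.50, adjusted p = 0.000362), that of SAA1 by 3.81 (SE 0.54, adjusted p = 0.000717) and that of CXCL8 by 3.62 (SE 0.80, adjusted p = 0.00586). In CXCL8 the early effect was −0.73, with 109, 3.96 and 3.02 FPKM at pH 7.4 and 10.2, 6.84 and 4.41 FPKM at pH 6.3, so acid was far lower at 4 h and slightly higher at 8 and 12 h, and the negative sign rests on the 4 h pair. In KRT75 the early values were 11.96, 7.51 and 12.2 FPKM at pH 7.4 and 19.8, 9.11 and 4.52 FPKM at pH 6.3. Those of RAB11FIP4 were 15.3, 14.4 and 30.6 FPKM and 30.04, 18.5 and 14.7 FPKM. Both genes, and ATP13A2, were higher in acid at 4 and 8 h and lower at 12 h, so their early means average opposite signs. KRT75 had an effect of −0.11 at 4 to 12 h, RAB11FIP4 of 0.08 and ATP13A2 of 0.09, against −4.13, −3.80 and −3.38 at 28 to 36 h. The chemokine gene CXCL14 went from 0.66 to −2.67. TXNIP was already 3.91 higher at 4 to 12 h, and its effect grew by 1.60 (SE 0.28, adjusted p = 0.00172), while that of CYR61 shrank from 3.56 to 2.16.

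By list, the effect was higher at 28 to 36 h than at 4 to 12 h for 8 of 13 amino acid enzymes, 11 of 20 tRNA synthetases, 14 of 34 mitotic genes and 9 of 33 proteasome genes, where 14.6% of all genes were. It was lower for 10 of 13 ERK genes, 7 of 16 YAP/TEAD genes, 7 of 19 immediate early genes, 10 of 26 matrix genes and 14 of 39 replication genes, where 11.8% of all genes were. The median of the ERK list went from 0.85 at 4 to 12 h to −0.20 at 28 to 36 h, and that of the amino acid enzymes from 0.07 to 1.42. Of 16 members of the ATF4 regulator list the effect was higher in 1 and lower in 2, with window medians of 0.49 and 0.96. Endoplasmic reticulum genes had 1 higher and 4 lower of 22, with medians of 0.52 and 0.57.

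**Figure D5:**
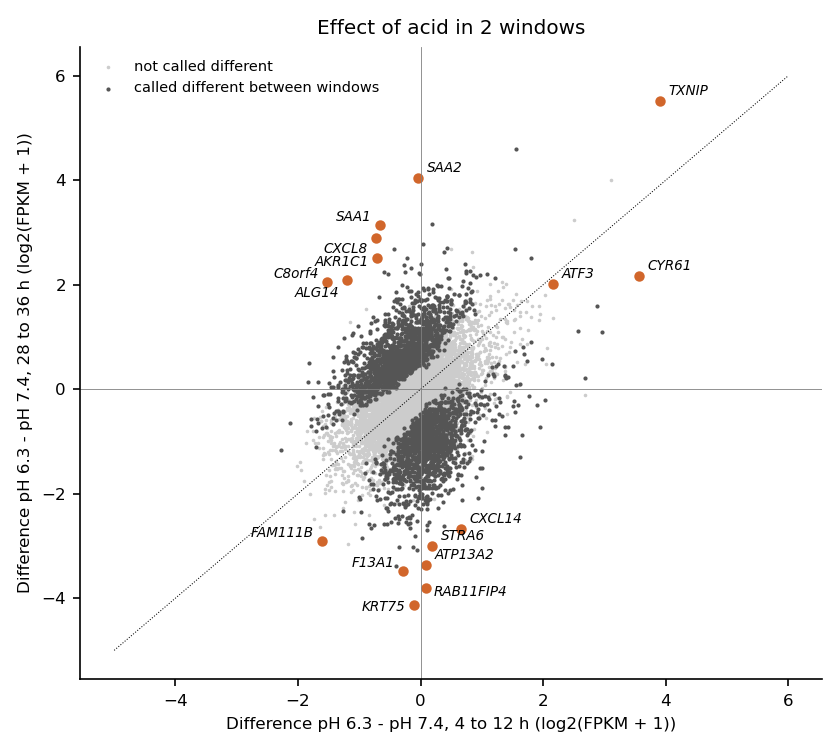
Difference between media (pH 6.3 minus pH 7.4, log2(FPKM + 1)) at 28 to 36 h (vertical axis) against that at 4 to 12 h (horizontal axis) for 11838 genes, with equal values on the dotted line and genes whose effect differed between the windows in dark grey. Labelled orange points are genes described in the text and others with large differences, with SAA2 near 0 early and at 4.04 late, and KRT75 near 0 early and at −4.13 late.

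Against 16 to 24 h the effect differed in 0.0253% of genes, 2 higher (0.0169%) and 1 lower (0.00845%), although 1742 genes had an unadjusted p below 0.05. Of these 3, ARNTL and TEF are clock genes. ARNTL was at 33.1, 43.1 and 38.5 FPKM at pH 7.4 and 7.93, 8.797 and 9.101 FPKM at pH 6.3 at 16, 20 and 24 h, far lower in acid, and higher in acid at 28, 32 and 36 h, a change of 2.74 (SE 0.35, adjusted p = 0.0265). TEF turned the other way, from 4.76, 1.32 and 1.15 FPKM at pH 7.4 and 23.7, 19.4 and 8.97 FPKM at pH 6.3, with a change of −3.79 (SE 0.54, adjusted p = 0.0339). At 40 to 52 h the effects had the sign of 16 to 24 h again, with −0.87 for ARNTL and 0.54 for TEF. Their differences between 28 to 36 h and 40 to 52 h did not pass the interaction test (adjusted p = 0.262 and 0.282). The serine synthesis gene PSAT1 had an effect of 0.11 at 16 to 24 h and was higher in acid by 1.30 at 28 to 36 h, a change of 1.19 (SE 0.16, adjusted p = 0.0265). None of the 3 was called when the 28, 32 or 36 h pair and its counterparts were left out. Against 40 to 52 h, from the same set of plates, limma called 0 genes in either direction, 1922 had an unadjusted p below 0.05, and without the hour as a block 6 were higher and 5 lower. With the block this comparison had the power of 3 and 4 pairs, so similar effects in these windows were not shown.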

How the data were processed

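RNA of 26 libraries was sequenced, of which 6 (3 per medium at 28, 32 and 36 h) entered the comparison and all 26 the comparison of windows. The deposited values were FPKM per gene, and STAR, Cufflinks and the hg38 genome are named per the submitters' processing notes. Sources used here do not give versions, the annotation release or strand settings. Symbols were matched to GENCODE 29 (19545 of 19806 rows). The depth estimate took the step between low FPKM values of a library as 1 fragment, which made 91.5% to 93.5% of these values whole within 0.1. Differences of log2(FPKM + 1) were tested with limma 3.58.1 in R 4.3.3 (moderated test with trend, Benjamini-Hochberg adjustment over 11838 genes averaging 1 FPKM or more, threshold 0.05), with the hour as a block, since per the labels both media of an hour were treated and harvested together. Deviations of the 2 libraries of an hour correlated at −0.20, 0.03 and −0.13. The windows were compared by the interaction of medium and window. Scripts were tested on simulated data. The members and gene lists were chosen with earlier results of these data known. Named were the 12 largest called increases and decreases with a mean of at least 5 FPKM in the higher medium, the 2 largest called members of each list per direction, all tested clock genes, TXNIP, MYC, DDIT4 and SESN2, and the 6 largest called differences per window and direction. Some genes that meet this rule are not reported here. Genes named because few members of a list passed, as examples, or for contrast with a relative, were chosen after their values were seen. Scaling, filters, pseudocount, GC correction, the block and each hour were varied.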

Additional observations from a re-analysis of the deposited data

Results flagged for a closer look

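The effect of acid (pH 6.3 minus pH 7.4, log2(FPKM + 1)) at 28 to 36 h differed from that at 4 to 12 h, by the interaction term, in 1734 genes upward and 1399 downward, and from that at 16 to 24 h in 2 upward and 1 downward. Against 4 to 12 h the largest upward differences were 4.08 for SAA2, 3.81 for SAA1, 3.62 for CXCL8, 3.58 for C8orf4, 3.28 for ALG14 and 3.22 for the aldo-keto reductase gene AKR1C1, whose near-identical relatives may share its fragments. ALG14, which encodes part of an enzyme of protein glycosylation, did not pass without the 8 and 12 h pairs, with 2.37 (adjusted p = 0.0751). The largest downward differences were −4.02 for KRT75, −3.89 for RAB11FIP4, −3.47 for ATP13A2, −3.33 for CXCL14, −3.20 for STRA6 and −3.20 for F13A1. Against 16 to 24 h they were 2.74 for ARNTL and 1.19 for PSAT1 upward and −3.79 for TEF downward. Time in medium and plate set cannot be told apart in these differences.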

How the results depend on the processing

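Leaving out 1 hour at a time gave 732 to 3465 higher and 1079 to 4561 lower genes, the lowest counts without the 32 h pair and the highest without the 28 h pair. An unpaired fit without the neutral 28 h library gave 3404 higher and 4630 lower genes. A fit of the other 24 libraries without the 28 h pair, added after seeing the data, gave 1623 higher and 2181 lower. The cause of these shifts was not tested. Without the replicate block 2594 genes were higher and 3891 lower, and the side of the threshold was kept for all 153 named genes. Against 4 to 12 h, leaving out a pair per window gave 582 to 1885 higher and 405 to 1259 lower genes. Leaving out the 20, 28, 44 and 48 h pairs, which hold the libraries with the largest GC trends, gave 1073 higher and 973 lower. Against 16 to 24 h the higher and lower counts were 1 and 0 with no filter on low values, 14 and 7 with a filter at a mean of 5 FPKM, 1 and 1 with upper-quartile or median-of-ratios scaling, 2 and 3 with quantile normalization, and 30 and 17 with GC correction and the block. They were 156 and 81 with no replicate block, 0 and 0 to 1 on leaving out a pair per window, and 0 and 0 without the 20, 28, 44 and 48 h pairs. Against 40 to 52 h they were 6 and 5 with no replicate block. Signs turned for 4 clock genes that did not pass. PER2 was at 0.022 with quantile normalization. CRY1 ran from −0.056 (also the value from 24 libraries) to 1.16 on leaving out 1 hour. NR1D1 was at 0.017 with median-of-ratios scaling, 0.13 with quantile normalization, 0.16 with GC correction and 0.52 unpaired, and ran from −0.90 to 0.76 (the value from 24 libraries) on leaving out 1 hour. BHLHE40 was at 0.041 with median-of-ratios scaling and 0.00041 unpaired, and ran from −0.41 to 0.18 (the value from 24 libraries). Of 153 named genes 38 lost their call without the 32 h pair, 22 without the 36 h pair, 28 with no filter on low values, 20 in the fit of 24 libraries and 8 in that of 26. Intervals from the estimated fragments of low values were not computed.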
